A study of Mus musculus with 12 samples.

Results

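The comparison set the CD27- fraction of common myeloid progenitors (CD27- CMP) against granulocyte-monocyte progenitors (GMP), 2 populations of immature blood-forming cells sorted from mouse bone marrow. Its members were chosen by title: the 3 arrays of CD27- CMP and the 3 arrays of GMP, 6 of the 12 arrays of the study. CD27- CMP were sorted as CD34+, CD16/32- and CD27- cells, and GMP as CD34+, CD16/32+ and CD27+ cells. The other 6 arrays came from CD27+ CMP (CD34+, CD16/32-, CD27+) and from megakaryocyte-erythrocyte progenitors (MEP; CD34-, CD16/32-, CD27-), 3 each. All populations were negative for mature lineage markers and for Sca-1 and positive for CD117, the Kit receptor. All came from female C57BL/6 mice aged 4 to 6 weeks, and RNA of 80000 cells per population was labelled for Affymetrix Mouse Genome arrays. Although the labels describe the 3 arrays as biological replicates, they leave unsaid if different mice or pools of mice were used for each. The p-values therefore set a difference against the spread of replicate arrays, pooled over all populations of the study. Whether that spread is one between mice is not known.

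Blood progenitors divide into a branch that makes red cells and platelets and a branch that makes neutrophils, monocytes and related white cells. The erythroid branch is run by GATA1, FOG1, GFI1B and KLF1, and its cells switch on the erythropoietin receptor, blood group proteins, haem enzymes and finally globin. The granulocyte-monocyte branch is run by PU.1, C/EBP factors, GFI1 and IRF8. Cells of that branch switch on colony-stimulating factor receptors, granule enzymes and the oxidase that kills microbes. Of these factors GFI1, like GFI1B, is a repressor, and GATA1 and PU.1 are known to oppose each other. CD27, the antigen that divides the common myeloid progenitors here, belongs to the tumour necrosis factor receptor family.

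Values are centred log2 intensities, in which 0 is the median of a probe set over the 12 arrays and a difference of 1 is a doubling. Levels can therefore be compared between arrays for 1 gene, but not between genes. Differences are CD27- CMP minus GMP, from 1 limma fit to all 12 arrays, with the standard error (SE) and a p-value adjusted by the Benjamini-Hochberg method over all 45037 probe sets. A gene is read at its most variable probe set, and is called where the adjusted p is under 0.05. For the 15263 probe sets whose values spanned 1 or more, the standard deviation (SD) of the difference between a pair of arrays was 0.528 to 0.825 within CD27- CMP and 0.463 to 0.627 within GMP. The same SD between a CD27- CMP and a GMP array was 1.63 to 1.77. Because each array is a bulk sample, fewer cells of a type and less RNA per cell cannot be told apart.

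The transcripts behind the sorting antibodies came first as a check of the labels. Cd27 read -2.36, -3.22 and -2.67 in CD27- CMP, against 2.36, 2.54 and 3.13 in GMP, a difference of -5.43 (SE 0.24, limma adjusted p = 5.4e-07). Fcgr3 and Fcgr2b encode the Fc receptors that the CD16/32 antibody binds, and Fcgr3 read -2.63, -2.50 and -2.39 in CD27- CMP, against 7.35, 6.80 and 7.31 in GMP. Fcgr2b read -3.05, -3.68 and -3.18 in CD27- CMP, against 4.82, 4.84 and 4.69 in GMP, and its other probe sets differed by -7.63, -6.26, -5.72 and 0.00. For all 3 genes every CD27- CMP array lay below every GMP array, the same order as the gates, which act on protein. CD27+ CMP, also gated as CD16/32-, had means of 2.20 for Fcgr3 and 3.38 for Fcgr2b. Its arrays lay above every CD27- CMP array and below every GMP array for both, so these RNAs did not follow the CD16/32 gate alone.

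Cd34 did not follow its gate. Both populations were sorted as CD34+, yet Cd34 RNA read -2.85, -2.88 and -3.93 in CD27- CMP, against 3.09, 2.85 and 3.13 in GMP, a difference of -6.25 (SE 0.70, limma adjusted p = 2.3e-04). The CD27- CMP arrays lay near the MEP mean of -4.91, a population sorted as CD34-, and far from the CD27+ CMP mean of 4.10. The difference between CD27- CMP and MEP was 1.69 (SE 0.70, limma adjusted p = 0.788), which did not pass the test. Kit, the gate that both populations share, differed by -0.50 (SE 0.28, limma adjusted p = 0.387), and its second probe set by 0.09. Ly6a, which encodes Sca-1, had no probe set with a single gene symbol.

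**Figure D1:**
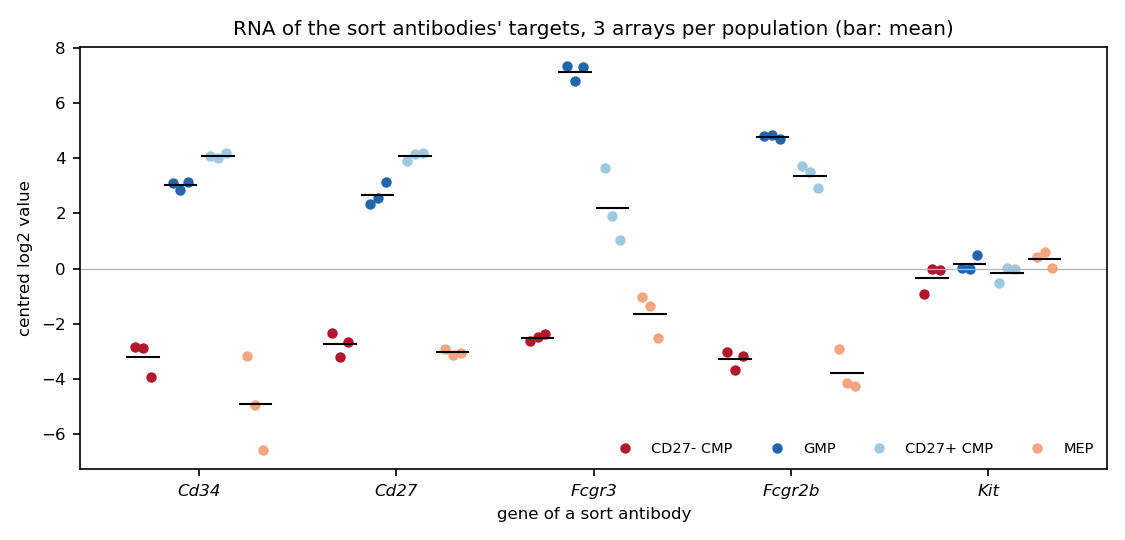
Centred log2 values (vertical axis) of the genes behind the sorting antibodies on the arrays of the 4 populations, 1 point per array. Cd27, Fcgr3 and Fcgr2b are low on the 3 CD27- CMP arrays and high on the 3 GMP arrays, and Cd34 is also low in CD27- CMP, although both populations were gated as CD34+.

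The populations differed widely. Of 45037 probe sets, 6393 were called (14.2%), and of 18193 genes, 3722 were called (20.5%). Genes higher in CD27- CMP numbered 1656 (9.1%) and genes lower in CD27- CMP numbered 2066 (11.4%). The lower genes also differed by more: their median difference was -1.78, against 1.20 for the higher genes, and 319 genes were lower by at least 4 while 139 were higher by that much. The arrays of the 2 populations did not overlap for 5582 genes (30.7%), and the median difference over all genes was 0.02. Without CD27- CMP replicate 3 the balance turned, to 2219 higher and 2113 lower genes.

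The markers named for the comparison are all among its largest differences, so their values describe its extremes and are no separate test. Lmna, which encodes the A-type lamins of the nuclear envelope, read 4.00, 4.11 and 3.37 in CD27- CMP, against -4.87, -4.82 and -4.08 in GMP (difference 8.42, SE 0.32, limma adjusted p = 2.3e-07), and its other probe sets gave 5.04, 1.07, 0.19 and 0.06. Cldn13, a claudin of tight-junction type, read 3.27, 3.10 and 3.14 in CD27- CMP, against -6.67, -4.78 and -3.10 in GMP. Fcgr3 had the largest negative difference of the leading genes, -9.67. Fcgr3, Hp and Chdh were high on every GMP array, and Lmna and Cldn13 on every CD27- CMP array. Hp, which encodes the haemoglobin-binding plasma protein haptoglobin, read -2.55, -3.95 and -3.50 in CD27- CMP, against 5.63, 5.52 and 5.81 in GMP. Chdh, the mitochondrial enzyme that oxidises choline, read -4.54, -5.04 and -4.61 in CD27- CMP, against 4.36, 3.97 and 4.14 in GMP.

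The 15 genes with the largest difference in each direction among called genes without overlap were chosen for that size, so their values describe the extremes. Those higher in CD27- CMP ran from 7.38 for Trib2 to 8.42 for Lmna. Red-cell membrane genes were among them, with Rhd and Kel of the Rh and Kell blood groups and Tspo2, a haem-related translocator protein of erythroid cells. Klf1, the erythroid Krüppel-like factor, differed by 7.68, but its GMP arrays were spread widely at -7.00, -4.57 and -2.63. The remainder were of mixed function: the collagen chain Col5a1 (7.82), the glutamine transporter Slc38a5 (7.81), the sodium pump subunit Atp1b2 (7.73), the protease Prss50 (7.66), the nonmuscle myosin heavy chain Myh10 (7.62), the sphingosine kinase Sphk1 (7.51), the tetraspanin Tspan8 (7.45), the lectin-like secretory protein Zg16 (7.43) and the pseudokinase Trib2. Second probe sets differed by much less for several: 0.04 for Myh10, 0.11 and 3.37 for Trib2, 0.90 and 4.07 for Col5a1, and 0.61 to 2.51 for Tspan8.

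Those lower in CD27- CMP ran from -7.98 for Ncf1 to -9.67 for Fcgr3. Besides Fcgr3, Fcgr2b, Hp and Chdh they held the adhesion protein embigin (Emb, -9.15), the annexin Anxa3 (-8.86), the activating receptor Trem3 (-8.80) and the lipopolysaccharide-binding protein Lbp (-8.40). Hdc, which makes histamine, differed by -8.36, and Mcpt8, a basophil protease, by -8.00. Gfi1, a repressor needed for neutrophil formation, differed by -8.09. Mgst1, a membrane glutathione transferase (-8.14), the amyloid precursor gene App (-8.00), the oxidase subunit Ncf1 and the immunoglobulin heavy chain Ighm (-8.06) completed them. For Ighm, 1 further probe set gave -6.06 and the other 9 lay between -0.01 and 0.14. Other probe sets also differed by less for App (-5.32, 0.02 and 0.00), Mgst1 (0.00), Lbp (-1.46) and, at 1 of its further probe sets, Emb (-0.23). All 30 leading genes stayed called with the same sign in every setting tried, including each array left out in turn, but sizes shrank by over 1.5 times for 9 of them when all probe sets of a gene were averaged. On that average the difference was -1.25 for Ighm, -3.33 for App, -4.07 for Mgst1 and -4.93 for Lbp, and 2.96 for Lmna, 4.27 for Col5a1, 3.83 for Myh10, 2.71 for Tspan8 and 3.62 for Trib2.

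**Figure D2:**
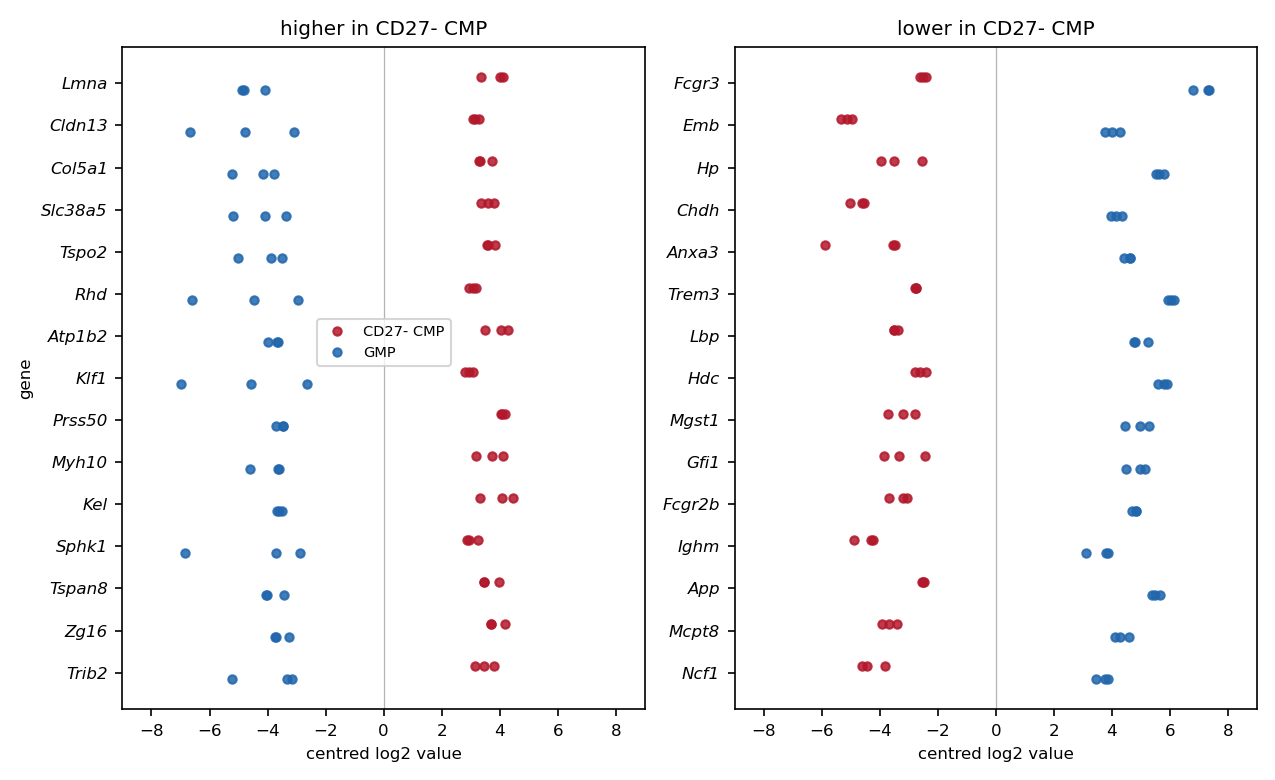
Centred log2 values (horizontal axis) of the 15 genes most higher (left) and the 15 most lower (right) in CD27- CMP against GMP, 1 point per array. CD27- CMP and GMP points lie on opposite sides of 0 for every gene shown, and the GMP points of Klf1, Rhd, Cldn13 and Sphk1 are the most spread.

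GMP replicate 1 was lowest of the 3 GMP arrays for 94 of the 139 genes higher in CD27- CMP by at least 4. The same count over all genes was not made, so a trait of these genes cannot be told from a trait of that array. Over all probe sets that array had an SD of 0.630, against 0.570 for each other GMP array. The median SD of the 139 genes over replicates was 0.288 in CD27- CMP and 0.385 in GMP. For the 319 genes lower by at least 4 it was 0.270 in CD27- CMP and 0.295 in GMP. In both directions the SD was larger in GMP.

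Erythroid surface and skeleton genes had the largest share of members called higher among the 40 gene lists. Of 21 measured members, 17 were higher in CD27- CMP and 0 were lower, with a median difference of 5.38 against 0.02 over all genes. The shares over all genes to set beside each list count were 9.1% higher and 11.4% lower. Rhd, the Rh antigen carrier, read 3.17, 2.94 and 3.10 in CD27- CMP, against -6.61, -4.48 and -2.94 in GMP. Kel, the Kell glycoprotein, read 4.46, 4.08 and 3.31 in CD27- CMP, against -3.68, -3.50 and -3.59 in GMP. All CD27- CMP arrays exceeded all GMP arrays by several units for both. Rhag, the partner of the Rh proteins, differed by 7.18, the water channel Aqp1 by 7.22, the erythroid membrane protein Ermap by 7.17 and the carbonic anhydrases Car1 and Car2 by 6.71 and 5.38. Among cytoskeletal members, the adducin Add2 differed by 6.45 and the ankyrin Ank1 by 5.70.

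Of the members that were not called, Slc4a1, the band 3 anion exchanger of mature red cells, differed by 0.43 (SE 0.24, limma adjusted p = 0.371), and the membrane skeleton genes Dmtn and Tmod1 by 0.16 and 0.25. Sptb, the erythroid beta spectrin, was higher by 1.14 (SE 0.17). The nonerythroid spectrins Sptbn1 and Sptan1, picked after their values were seen, ran the other way at -4.80 and -6.19. The globin list had 6 measured members, of which 0 were called by limma in either direction, with a median difference of 0.03. Its largest value was 0.93 for Hbb-b2 (SE 0.31, limma adjusted p = 0.089), and 1 of the 6 had an unadjusted p under 0.05. Without CD27- CMP replicate 3, 1 globin gene was called higher.

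Most haem synthesis genes rose, with an exception at the entry step. Of 13 measured, 9 were higher and 2 were lower in CD27- CMP, with a median of 1.90. Cpox differed by 3.50, Alad by 3.06, Urod by 2.31 and Fech, which inserts the iron, by 2.02, and the mitochondrial glycine carrier Slc25a38 by 2.87. The first enzyme of the pathway has a housekeeping form, Alas1, and an erythroid form, Alas2. Alas1 read -1.17, -1.30 and -1.17 in CD27- CMP, against 3.20, 2.96 and 3.30 in GMP, a fall of all CD27- CMP arrays below all GMP arrays (difference -4.36, SE 0.13). Alas2 had a difference of 0.00 (limma adjusted p = 1), and such a flat probe set gives no information on its level. The second member called lower, the mitochondrial iron carrier Slc25a37, lost its call without CD27- CMP replicate 2 and without GMP replicate 1 (limma adjusted p up to 0.065).

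Iron genes were called mostly as higher, with 6 of 13 measured members higher, 1 lower and a median of 0.70. The ferroportin gene Slc40a1, the cellular iron exporter, differed by 3.84, the transferrin receptor Tfr2 by 3.75, the endosomal iron transporter Slc11a2 by 3.16 and the ferrireductase Steap3 by 2.59. Tfrc, the main transferrin receptor, differed by -0.19 (SE 0.58, limma adjusted p = 0.989). Ncoa4, the cargo receptor that delivers ferritin for breakdown, was lower at -2.67.

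Transcription factors of the erythro-megakaryocytic branch did not all move one way. Of 19 measured, 10 were higher and 5 were lower, with a median of 1.67. Gata1 read 2.71, 2.44 and 2.35 in CD27- CMP, against -5.87, -4.11 and -3.23 in GMP (difference 6.90, SE 0.63, limma adjusted p = 5.7e-05). Gfi1b, a repressor of erythroid and megakaryocyte cells, differed by 7.18, Zfpm1, which encodes the GATA1 partner FOG1, by 5.92, and Nfia by 6.00. Tal1 differed by 3.20, Gata2 by 1.97 and Ldb1, the adaptor that joins them, by 1.95. Those called lower were the ETS factors Ets1 (-3.87) and Fli1 (-2.97), Mef2c (-1.98), Runx1 (-1.96) and Lyl1 (-0.69), of which Fli1, Mef2c and Runx1 are known from megakaryocytes. With the 6 arrays alone 2 of the 5 stayed called lower.

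The promoters of 4 erythroid genes are shown because array values of these genes are given in the text and each holds a short match to a motif of GATA factors or Krüppel-like factors. They were picked after the values were seen. The sequences are the 150 bases before the transcription start in RefSeq (GRCm38.p6), 5′ to 3′ on the gene's strand, with motif matches in capitals. Where a gene has several listed promoters, the first is used, and a distance is counted from the start to the first printed base of a match.
Rhd, chr4:134864386-134864535, + strand: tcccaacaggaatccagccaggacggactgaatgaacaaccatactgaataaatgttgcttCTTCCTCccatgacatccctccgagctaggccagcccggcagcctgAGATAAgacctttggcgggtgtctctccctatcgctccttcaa
Kel, chr6:41704326-41704475, - strand: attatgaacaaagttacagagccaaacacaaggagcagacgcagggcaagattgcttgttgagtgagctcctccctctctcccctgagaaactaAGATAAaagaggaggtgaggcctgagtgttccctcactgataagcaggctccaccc
Epor, chr9:21963577-21963726, - strand: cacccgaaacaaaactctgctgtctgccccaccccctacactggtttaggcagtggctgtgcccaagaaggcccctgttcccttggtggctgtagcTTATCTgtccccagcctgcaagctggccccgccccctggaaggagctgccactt
Klf1, chr8:84901832-84901981, + strand: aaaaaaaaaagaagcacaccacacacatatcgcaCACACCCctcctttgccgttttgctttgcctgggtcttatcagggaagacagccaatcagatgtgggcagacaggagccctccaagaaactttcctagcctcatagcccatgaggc
The GATA motif AGATAA lies 43 bases before the start of Rhd, 56 before that of Kel and, on the opposite strand, 54 before that of Epor. The Krüppel-like motif CACACCC lies 116 bases before the start of Klf1, and the capitals at position -89 of Rhd mark the PU.1 motif GAGGAAG on the opposite strand. Only these exact letters were searched. Other forms with GATA, such as TGATAA in Kel and, on the opposite strand, in Klf1, stay in lower case and were not counted.

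Each motif was then counted over all promoters. Of 18193 measured genes, 14452 had a promoter in the RefSeq table, which runs from 250 bases before to 50 bases after the start, and both strands were searched. The motif AGATAA was in 7.58% of 1385 promoters of genes higher in CD27- CMP, in 6.61% of 1663 promoters of lower genes and in 8.13% of all measured promoters. For CACACCC the shares were 8.88%, 9.50% and 8.62% in the same order. The motif GAGGAAG was in 11.4% of promoters of higher genes and 17.0% of those of lower genes, against 13.3% of all. Within genes that differed by at least 4, AGATAA was in 11.8% of 102 higher and 8.10% of 247 lower promoters, and GAGGAAG in 15.7% of the higher and 18.6% of the lower. These are counts of letters in a window and were not tested.

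Most cytokine receptors fell, and 1 rose. Of 27 measured, 18 were lower in CD27- CMP and 1 was higher, with a median of -2.44. The higher one was the erythropoietin receptor Epor, which read 3.59, 3.07 and 2.93 in CD27- CMP, against -4.10, -4.06 and -2.94 in GMP (difference 6.90, SE 0.34). Csf2rb, the signalling chain for GM-CSF, IL-3 and IL-5, read -2.74, -3.97 and -4.50 in CD27- CMP, against 3.68, 3.74 and 3.33 in GMP. Every CD27- CMP array lay above every GMP array for Epor and below every GMP array for Csf2rb. Csf1r, the macrophage colony-stimulating factor receptor, differed by -6.28, Csf3r, the granulocyte one, by -5.72, Il6ra by -5.55 and its partner Il6st by -4.74, and Il4ra by -4.21. Flt3, the receptor of early multipotent cells, differed by -2.86. Il17ra differed by 1.01 without being called (limma adjusted p = 0.061), and without GMP replicate 3 a second receptor passed the test as higher.

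Granulocyte-monocyte transcription factors were called in 1 direction, with 11 of 18 measured members lower, 0 higher and a median of -2.29. Gfi1 read -2.46, -3.33 and -3.86 in CD27- CMP, against 4.98, 5.14 and 4.50 in GMP. Cebpa, which starts the granulocyte programme, read -2.81, -5.10 and -4.29 in CD27- CMP, against 3.07, 2.89 and 3.44 in GMP. Spi1, which encodes PU.1, read -1.93, -2.89 and -3.05 in CD27- CMP, against 2.23, 1.93 and 2.71 in GMP. The groups stood apart on all arrays for these 3 factors. Irf8, which steers cells to monocytes, differed by -6.66, Cebpd by -5.13, Klf4 by -3.86 and Cebpb by -3.31. Members with no call included Id2 (-1.58, limma adjusted p = 0.094) and Irf4 (0.00). Without CD27- CMP replicate 3, 1 member of this list was called higher.

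Primary granule genes, whose proteins neutrophil precursors make first, fell almost without exception. Of 14 measured, 13 were lower and 0 were higher, with a median of -5.25. Elane, neutrophil elastase, read -1.95, -3.67 and -2.43 in CD27- CMP, against 5.04, 4.48 and 5.46 in GMP. Prtn3, proteinase 3, differed by -5.79, cathepsin G (Ctsg) by -6.23 and myeloperoxidase (Mpo) by -4.54. Ms4a3, a membrane protein of granulocyte-monocyte cells, differed by -7.69 and the protease inhibitor Serpinb1a by -6.92. The member not called was Ap3b1, which encodes an adaptor for granule sorting (-0.15).

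Later neutrophil genes were lower in 8 of 17 measured members and higher in 0, with a median of -1.39. Besides Hp and Mgst1, the members Ckap4 (-6.90), Pglyrp1, a peptidoglycan recognition protein (-6.61), Anxa1 (-6.53) and lysozyme (Lyz2, -5.14) were lower. Genes of the later granules were not alike: Lcn2 (lipocalin 2) was called lower at -3.35, while Ltf (lactoferrin), Camp, Ngp and the gelatinase Mmp9 gave 0.00, 0.00, 0.01 and 0.04 and were not called. S100a8 was lower at -4.56 (SE 1.09, limma adjusted p = 0.02), a call lost when any of 4 arrays was left out (adjusted p up to 0.08). Its partner S100a9 differed by -1.39 and was not called.

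The phagocyte oxidase was lower in 5 of 6 measured members, with a median of -5.94. Cybb, its catalytic subunit, read -2.12, -1.17 and -1.87 in CD27- CMP, against 5.15, 4.62 and 4.44 in GMP. Ncf1 and Ncf4, 2 cytosolic subunits, differed by -7.98 and -6.79, the proton channel Hvcn1 by -5.42 and the small GTPase Rac2 by -2.33. Cyba, the other membrane subunit, differed by -0.59 (SE 0.27, limma adjusted p = 0.227).

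Promoters of 3 genes lower in CD27- CMP are shown for contrast, again the 150 bases before the start with matches in capitals, and also picked after the values were seen.
Fcgr3, chr1:171059404-171059553, - strand: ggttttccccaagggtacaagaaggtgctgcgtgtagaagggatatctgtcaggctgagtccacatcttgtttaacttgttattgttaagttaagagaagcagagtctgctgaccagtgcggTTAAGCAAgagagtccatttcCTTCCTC
Elane, chr10:79886162-79886311, + strand: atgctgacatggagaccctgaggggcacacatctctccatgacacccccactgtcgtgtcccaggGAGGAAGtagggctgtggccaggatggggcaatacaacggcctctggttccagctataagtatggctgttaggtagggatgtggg
Prtn3, chr10:79879517-79879666, + strand: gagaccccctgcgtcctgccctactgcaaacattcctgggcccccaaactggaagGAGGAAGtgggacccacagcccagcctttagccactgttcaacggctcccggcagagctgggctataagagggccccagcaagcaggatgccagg
The PU.1 motif GAGGAAG lies 85 bases before the start of Elane, 95 before that of Prtn3 and, on the opposite strand, 7 before that of Fcgr3. The C/EBP motif TTGCNNAA lies 28 bases before the start of Fcgr3, on the opposite strand. The C/EBP motif was in 7.73% of promoters of genes higher in CD27- CMP and 9.44% of those of lower genes, against 9.04% of all measured promoters.

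Fc receptors, their signalling adaptors and kinases fell in 15 of 22 measured members and rose in 1, with a median of -2.73. The adaptors Tyrobp (DAP12) and Fcer1g, through which these receptors signal, differed by -6.26 and -5.34. The receptors Clec4e, Clec7a (dectin-1) and Clec5a differed by -6.60, -5.92 and -5.71. Clec4d, a C-type lectin receptor, was the member called higher, by 1.05. Fcgr1 and Fgr were flat at 0.00 and 0.00.

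Innate sensing genes were lower in 7 of 17 measured members of the Toll-like receptor list and higher in 0, with a median of -0.57. Ly86, which encodes MD-1, differed by -7.89, Tlr2 by -4.44, the endosomal chaperone Unc93b1 by -4.12, Cd14 by -3.60 and Tlr4 by -3.42. The endosomal receptors Tlr7, Tlr8 and Tlr9 were flat at 0.00, 0.00 and 0.04. The adaptor Myd88 differed by -0.14 and was not called.

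Chemokines and their receptors were lower in 8 of 16 measured members and higher in 0, with a median of -0.79. The chemokines Ccl9 and Ccl6 differed by -7.92 and -4.13. Among receptors, Ccr2, which draws monocytes out of the marrow, differed by -6.78, the leukotriene receptor Ltb4r1 by -6.16 and Cxcr4, which holds cells in the marrow, by -2.51. Fpr2 and C5ar1, receptors of mature phagocytes, were flat at 0.01 and 0.01.

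Adhesion molecules were lower in 13 of 21 measured members and higher in 0, with a median of -1.52. Emb read -5.13, -5.35 and -4.97 in CD27- CMP, against 4.27, 3.75 and 3.99 in GMP. The tetraspanin Cd53 differed by -7.88, Vcam1 by -5.11, Pecam1 by -4.41, Alcam by -4.40 and Icam1 by -4.39. Of the integrins, Itgal differed by -3.91 and Itgam by -1.85, while Itga4 (0.66), Itgb1 (-0.20) and Itgb2 (-0.11) were not called. Without GMP replicate 3, 1 adhesion gene was called higher.

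Monocyte and macrophage genes were lower in 11 of 21 measured members and higher in 1, with a median of -1.21. The pore-forming protein Mpeg1 differed by -7.53, the cathepsins Ctsh and Ctss by -7.22 and -4.85, and Cd68 by -5.97. Of the macrophage surface receptors, Adgre1 (F4/80) was called lower at -2.74, while Mrc1, Marco and Msr1 gave -0.01, 0.01 and 0.06 and were not called. Of the MHC class II genes, H2-DMa was called lower at -1.21 (limma adjusted p = 0.02), a call lost without any 1 of the CD27- CMP arrays (adjusted p up to 0.054). H2-Aa (0.18), H2-Ab1 (0.69) and Cd74 (0.26) were not called, although H2-Ab1 was called higher with the 6 arrays alone (adjusted p = 0.048). The member called higher was the lysosomal reductase Ifi30, by 1.37, and without CD27- CMP replicate 2 there were 2.

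Some genes of mast cells, basophils and eosinophils were also higher in GMP. Of 18 measured, 7 were lower in CD27- CMP and 1 was higher, with a median of -0.17. Hdc read -2.62, -2.39 and -2.80 in CD27- CMP, against 5.79, 5.58 and 5.89 in GMP. Mcpt8 read -3.40, -3.94 and -3.68 in CD27- CMP, against 4.27, 4.10 and 4.60 in GMP. Both were high on all 3 GMP arrays. Cpa3, the mast cell carboxypeptidase, differed by -6.37, the eosinophil granule proteins Prg2 and Prg3 by -6.19 and -3.18, and Ms4a2, a chain of the IgE receptor, by -3.63. The tryptases Tpsab1 and Tpsb2 and the chymases Cma1 and Mcpt4, markers of mature mast cells, lay between 0.00 and 0.03. Gata2, also needed by mast cells and basophils, was the 1 higher member. The summed level of the list, as its mean per array, was -0.63, -0.57 and -0.66 in CD27- CMP, against 1.69, 1.74 and 1.30 in GMP.

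**Figure D3:**
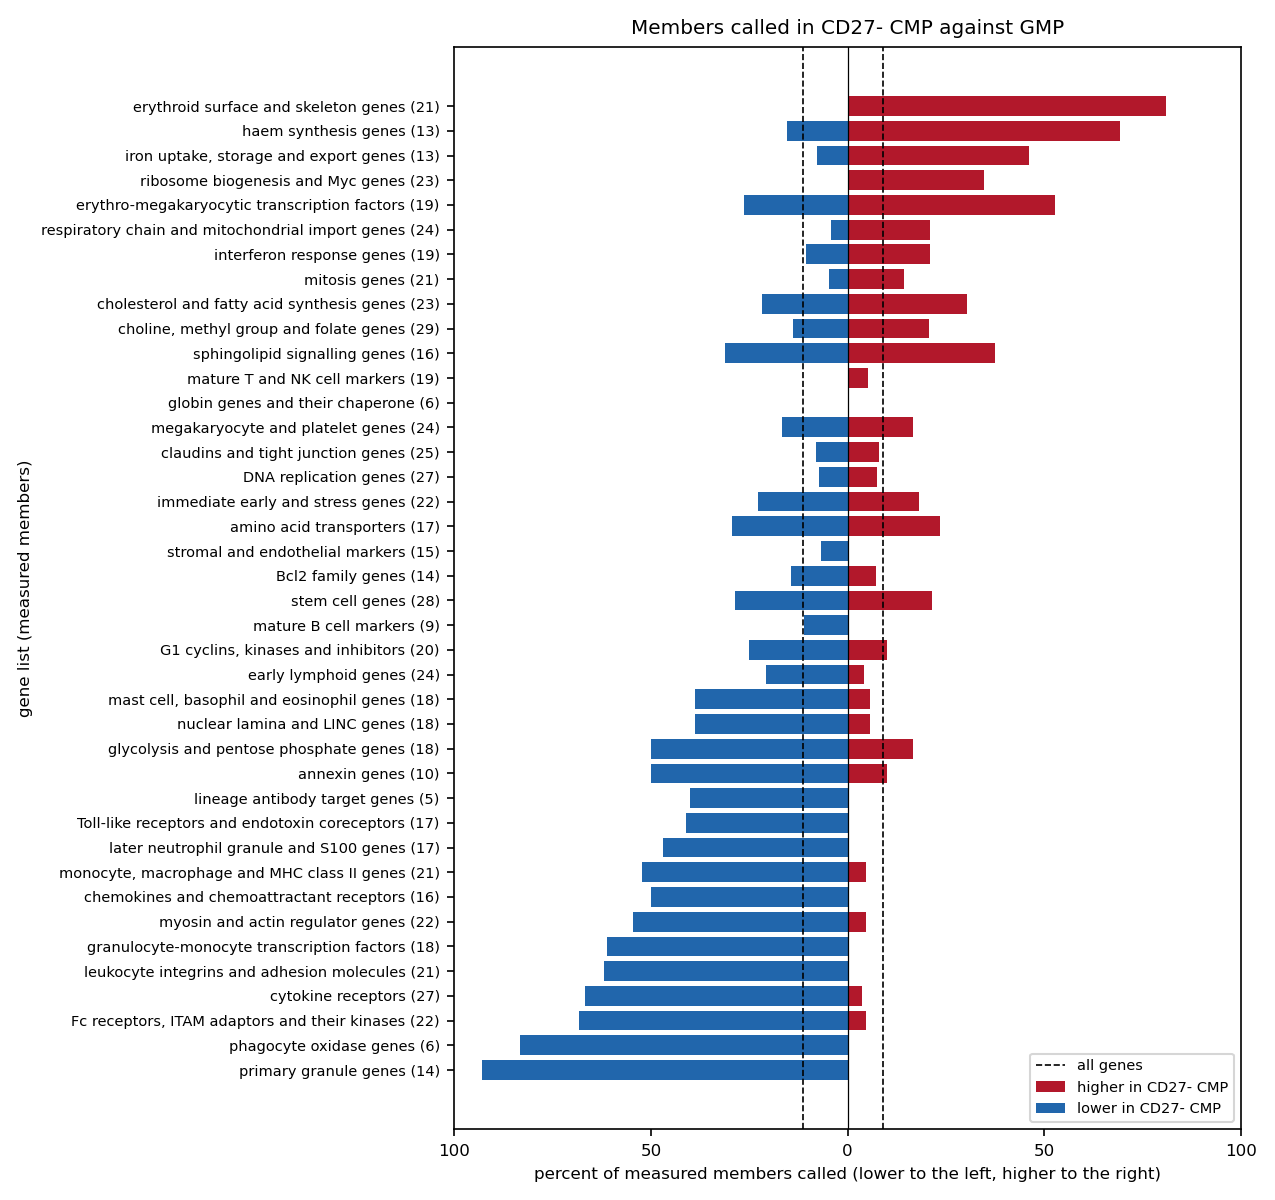
Percent of measured members called lower (left of 0) and higher (right of 0) in CD27- CMP against GMP for each gene list. The number of measured members stands beside each name, and dashed lines mark the percent over all genes. Erythroid surface genes are called only as higher, and primary granule, oxidase and chemokine genes only as lower.

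Megakaryocyte and platelet genes were mixed, and 1 array stood apart. Of 24 measured, 4 were higher and 4 were lower in CD27- CMP (all genes: 9.1% and 11.4%), with a median of -0.19. F2r, a thrombin receptor, read 1.55, 1.92 and 1.75 in CD27- CMP, against -5.33, -4.17 and -4.39 in GMP. Gp5, a subunit of the platelet von Willebrand receptor, read 2.51, 2.04 and 1.69 in CD27- CMP, against -3.60, -4.17 and -2.09 in GMP. Both were high on all CD27- CMP arrays and low on all GMP arrays. Pf4, platelet factor 4, read 2.99, 0.64 and 1.24 in CD27- CMP, against -1.04, -1.45 and -0.56 in GMP, and Vwf, von Willebrand factor, read 2.55, 1.03 and 0.38 in CD27- CMP, against -1.05, -1.91 and -0.93 in GMP. Both were called (2.64, limma adjusted p = 0.011, and 2.62, limma adjusted p = 0.0069), but neither with the 6 arrays alone (adjusted p 0.086 and 0.076).

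CD27- CMP replicate 1 was the highest CD27- CMP array for 20 of the 24 genes, against 54.9% of all genes. The mean of the list was 0.91 on that array and -0.20 and -0.22 on the other CD27- CMP arrays, against 0.01, -0.38 and 0.23 on the GMP arrays. Gp1bb, another subunit of the same receptor, read 2.99, -0.01 and 0.70 in CD27- CMP, against -0.64, -1.84 and -0.47 in GMP, and its difference of 2.21 was not called (limma adjusted p = 0.114). Treml1, a platelet receptor, read 2.75, -0.23 and 0.51 in CD27- CMP, against -0.32, -0.84 and -0.30 in GMP, and was called without CD27- CMP replicate 2 (difference 2.12, limma adjusted p = 0.043). Itga2b, the platelet integrin, differed by 0.86 (limma adjusted p = 0.385). The 4 called lower were the coagulation factors F10 (-3.88) and F5 (-2.35), the platelet granule gene Nbeal2 (-3.47) and Rap1b (-1.05). The count of higher members stayed at 4 without CD27- CMP replicate 1, and the part of that array in the values of single genes was not tested further.

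**Figure D4:**
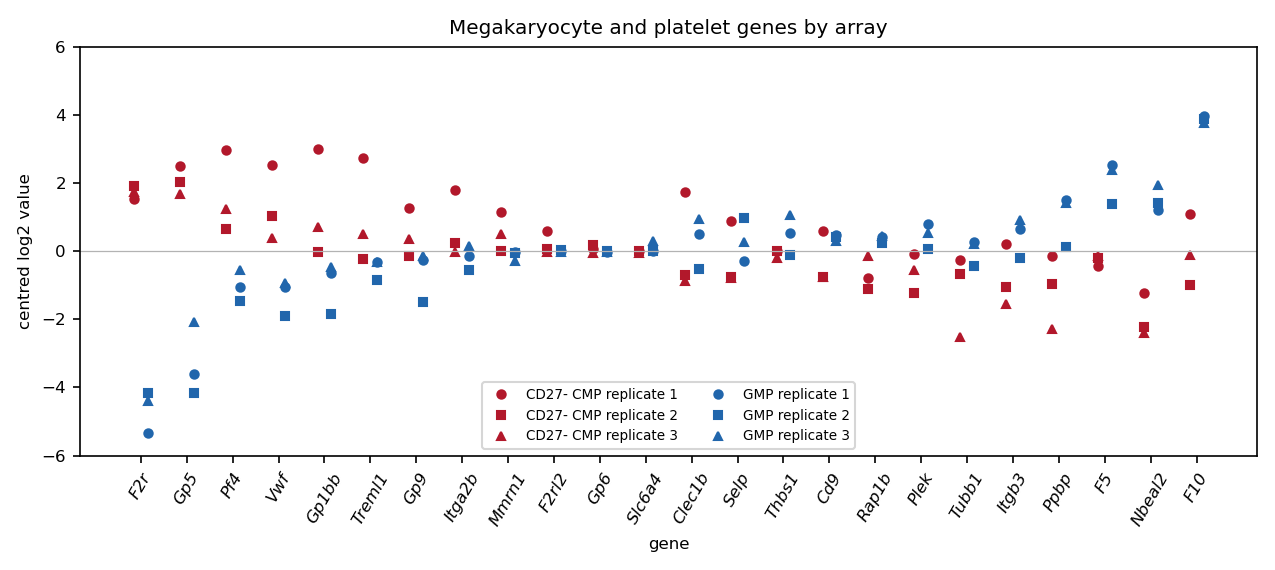
Centred log2 values (vertical axis) of the 24 measured megakaryocyte and platelet genes, with CD27- CMP in red, GMP in blue and the symbol giving the replicate. CD27- CMP replicate 1 (red circles) lies above the other CD27- CMP arrays for most genes, while F2r and Gp5 are high on all 3.

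Stem cell genes showed no common direction. Of 28 measured, 6 were higher and 8 were lower (all genes: 9.1% and 11.4%), with a median of -0.03. Prom1, which encodes the CD133 antigen, differed by -7.00, Erg by -3.41, Hoxa7 by -2.94, Hlf by -2.09 and Hoxa9 by -1.75. Higher were the transglutaminase Tgm2 (6.64), Mllt3 (4.17), Egr1 (3.71), Mycn (2.75) and Slamf1, the CD150 antigen (2.41). Meis1 and Mecom, regulators of stem cells, differed by -0.51 and -0.52 and were not called.

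Among early lymphoid genes, 5 of 24 measured were lower and 1 was higher, with a median of 0.01. The share called was not far above the 20.5% over all genes. Satb1 and Notch1, chromatin and receptor genes of lymphoid priming, differed by -5.35 and -4.93, and Sox4 by -2.48. The recombination genes Rag1 and Rag2, the terminal transferase Dntt and the IL-7 receptor Il7r were flat, at 0.01, -0.07, 0.07 and 0.00. Tcf3 was higher by 1.41, and the count of higher members was 2 without CD27- CMP replicate 2 and 3 without replicate 3.

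Markers of cells that the sort should remove were counted in the same manner. Mature B cell markers had 1 of 9 measured members lower (Cd79b, -4.88) and 0 higher, with Ms4a1 at 0.19, and their mean per array was -0.14 to -0.49 in CD27- CMP, against 0.18 to 0.39 in GMP. Without CD27- CMP replicate 3, 1 of them was called higher. T and NK cell markers had 1 of 19 higher (Eomes, 0.14, a call lost when any of 4 arrays was left out) and 0 lower, with means of -0.03 to 0.04 in CD27- CMP, against 0.00 to 0.16 in GMP. Stromal and endothelial markers had 1 of 15 lower (Pdgfrb, -2.29) and 0 higher, with Col1a1, Cdh5 and Kdr at 0.01, 0.00 and 0.01, and means of -0.13 to -0.04 in CD27- CMP, against 0.07 to 0.09 in GMP. In each of the B cell, T and NK cell and stromal lists the share called was below the 20.5% over all genes. The median difference was 0.01 for the B cell list and 0.01 for the stromal list. The gaps between their means therefore rest largely on Cd79b and Pdgfrb. Of the genes listed as targets of the lineage antibodies, Itgam (CD11b) and Ptprc (CD45) were lower at -1.85 and -2.20, with 0.01 at a second Ptprc probe set, and Cd3e, Cd4 and Cd8a gave -0.02, 0.02 and 0.16. Ptprc was read for the gene as a whole and not for a single form of CD45, so its value does not describe removed cells. Centred values do not show whether a flat gene was absent or evenly present, so the part of other cells in the results was not tested.

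Several enzyme and structural families, chosen with results of these data known, had 1 member high in CD27- CMP and another high in GMP. Hexokinases ran from 1.73 for Hk1 to -3.74 for Hk2 and -7.81 for Hk3, although the Hk1 call was lost when any of 4 arrays was left out (limma adjusted p up to 0.074). Phosphofructokinases gave 3.12 for the muscle form Pfkm, 0.45 for the liver form Pfkl, which was not called, and -2.71 for the platelet form Pfkp. Pyruvate kinases gave 6.84 for Pklr, which makes the liver and red cell form, and -5.64 for Pkm. Pkm read -2.23, -3.63 and -3.35 in CD27- CMP, against 2.39, 2.30 and 3.02 in GMP. Sodium pump beta subunits gave 7.73 for Atp1b2 and -5.12 for Atp1b1. Pklr and Atp1b1 were picked after their values were seen, beside members of the lists.

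**Figure D5:**
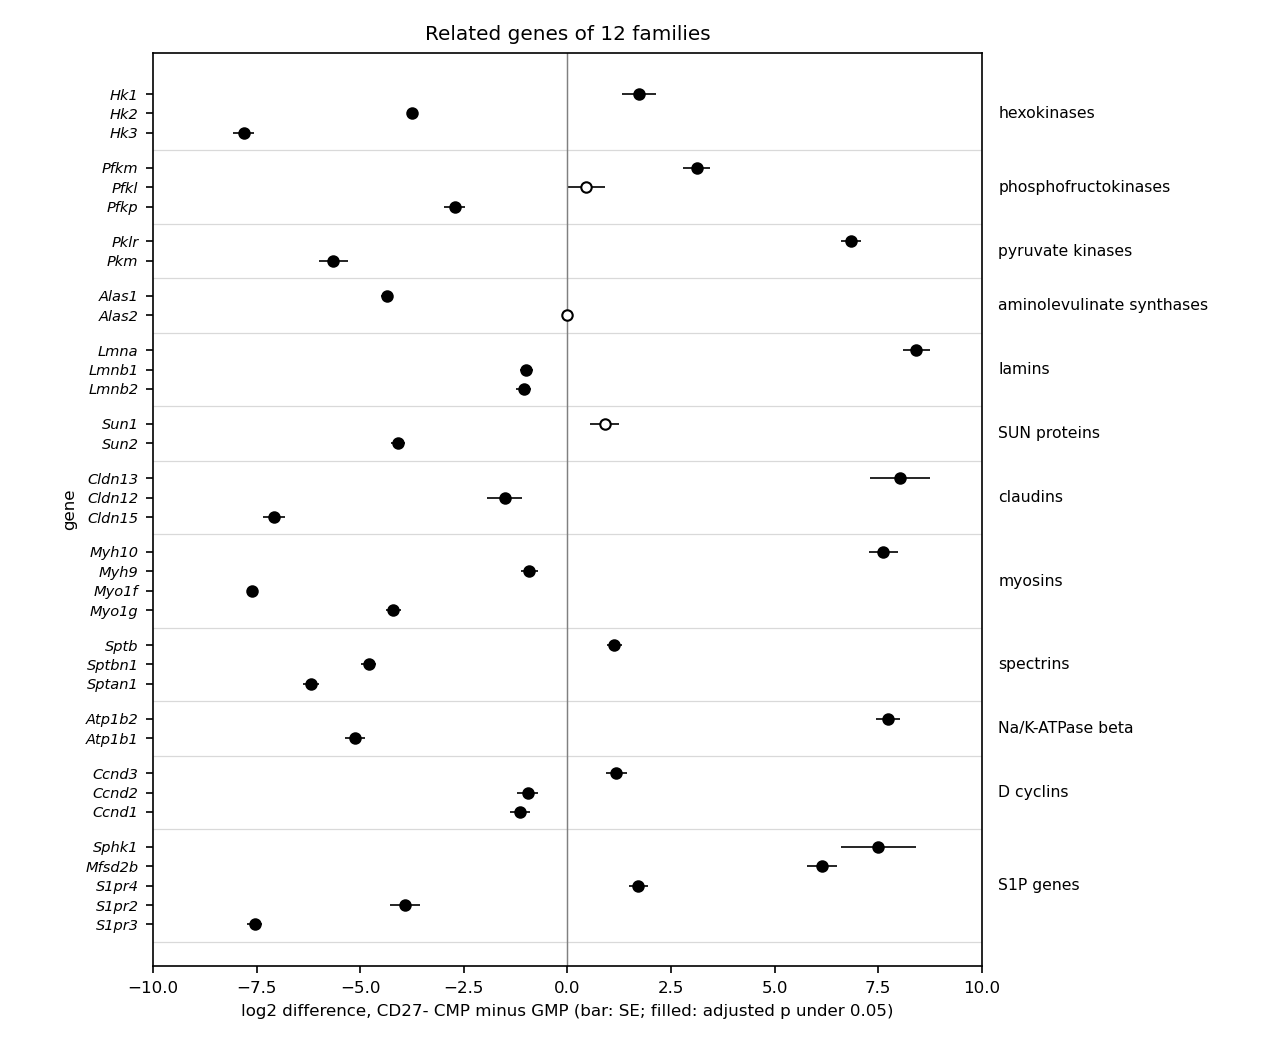
Log2 difference of CD27- CMP minus GMP (horizontal axis) with its SE for members of the enzyme and structural families named in the text. In most of the families shown, members lie on both sides of 0, such as Pklr and Pkm or Lmna and Lmnb1. Families and members were chosen with the values known, so this describes the choice. Not every measured member is drawn, and open circles mark genes that were not called.

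Over the whole list of glycolysis and pentose phosphate genes, 9 of 18 measured members were lower and 3 were higher, with a median of -0.73. The glucose transporter Slc2a1 differed by -4.39 and Slc2a3 by 1.89. Ldhb, a lactate dehydrogenase chain, differed by -4.44, and Ldha, its other chain, by 0.19 without a call. Pgam1 differed by -3.86 and Pgd, of the pentose phosphate path, by -1.63.

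Nuclear envelope genes were called mostly as lower. Of 18 measured, Lmna was the 1 higher member and 7 were lower, with a median of -0.20. The B-type lamins Lmnb1 and Lmnb2 differed by -0.99 and -1.05. Sun2, which links lamins to the cytoskeleton, differed by -4.09, and by -0.94 at its second probe set, while Sun1 differed by 0.90 and was not called.

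Claudin and tight junction genes had 2 of 25 measured members higher, 2 lower and a median of 0.02, and the share called was near the 20.5% over all genes. Cldn13 and Tjp1, the scaffold protein ZO-1, differed by 8.02 and 4.74. Cldn15 read -1.30, -1.31 and -1.38 in CD27- CMP, against 5.77, 5.80 and 5.71 in GMP. Cldn12 was lower at -1.51, and this call was lost when any of 5 arrays was left out (limma adjusted p up to 0.145).

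Myosin and actin genes were lower in 12 of 22 measured members and higher in 1, with a median of -1.19. The leukocyte myosins Myo1f and Myo1g differed by -7.60 and -4.20, the bundling protein Lcp1 (L-plastin) by -5.84 and the coronin Coro1a by -4.47. Myh10 was the higher member, and the related heavy chain Myh9 was lower at -0.93. A second member passed as higher without CD27- CMP replicate 3.

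Annexins and their partners were lower in 5 of 10 measured members and higher in 1, with a median of -1.46. Anxa3 read -3.56, -5.89 and -3.47 in CD27- CMP, against 4.62, 4.42 and 4.61 in GMP. Anxa2 differed by -3.77 and Anxa5 by -2.42. The higher call, for S100a10 (0.82), was lost when any of 4 arrays was left out (limma adjusted p up to 0.139), and 2 members were called higher without CD27- CMP replicate 1.

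Sphingolipid signalling genes moved in both directions, with 6 of 16 measured members higher, 5 lower and a median of 0.42. Sphk1, which makes sphingosine 1-phosphate, read 3.25, 2.93 and 2.89 in CD27- CMP, against -6.84, -3.72 and -2.89 in GMP. Mfsd2b, the exporter of that lipid from red cells and platelets, differed by 6.14, and Ugcg, which makes glucosylceramide, by 3.15. Among its receptors, S1pr4 was higher by 1.71, S1pr3 and S1pr2 were lower at -7.55 and -3.91, and S1pr1 differed by 0.10 without a call. Sgpl1, the lyase that breaks the lipid down, was lower at -2.43.

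Choline, methyl group and folate genes included Chdh, the choline enzyme that was high in GMP. Of 29 measured, 6 were higher and 4 were lower (all genes: 9.1% and 11.4%), with a median of 0.02. Against Chdh at -8.88, the choline transporters were split, with Slc44a1 at 3.36 and Slc44a2 at -2.52. The folate enzyme Mthfd1 was higher by 2.14, methionine synthase reductase (Mtrr) by 1.39 and the folate carrier Slc19a1 by 1.18, and Shmt1 was lower at -2.50.

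Amino acid transporters had 4 of 17 measured members higher and 5 lower (all genes: 9.1% and 11.4%), with a median of 0.01. Slc38a5 read 3.82, 3.59 and 3.37 in CD27- CMP, against -5.18, -4.11 and -3.37 in GMP. Slc7a7 and Slc1a4 were also higher, by 2.16 and 2.09, while Slc7a6, the lysosomal transporter Slc36a1 and Slc43a2 were lower at -4.28, -4.11 and -3.16.

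Cholesterol and fatty acid genes had 7 of 23 measured members higher and 5 lower (all genes: 9.1% and 11.4%), with a median of 0.01. The desaturases Fads2 and Fads1 were higher by 3.57 and 1.51, the sterol enzyme Lss by 1.73, and Scd2 was lower at -1.77. The count of lower members was 3 without CD27- CMP replicate 2 and 2 without GMP replicate 1 or GMP replicate 2.

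Genes of the later cell cycle were called at a share near the 20.5% over all genes. Of 27 DNA replication genes measured, 2 were higher and 2 were lower (median 0.06), and of 21 mitosis genes, 3 were higher and 1 was lower (median 0.08). Mcm2 differed by 0.21, Pcna by -0.05, the mitotic kinase Cdk1 by 0.04 and the topoisomerase Top2a by -0.24, and none was called. The 3 mitosis genes called higher fell to 1 without CD27- CMP replicate 1 or 2 or GMP replicate 1, and the 1 called lower was lost without CD27- CMP replicate 1 or 2 or GMP replicate 2.

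Genes of the G1 phase were called in both directions. Of 20 measured members, 2 were higher and 5 lower (all genes: 9.1% and 11.4%), with a median of -0.18. Ccne1, a cyclin that starts DNA synthesis, was higher by 3.02 (SE 0.25, limma adjusted p = 3.2e-05). The inhibitor Cdkn1a was lower at -2.27 and the kinase Cdk6 at -1.91. Ccnd3 was higher by 1.18 at its most variable probe set and differed by -0.25 and -0.06 at the others. Ccnd1 was lower at -1.13, and Ccnd2 at -0.96 with a call lost when any of 4 arrays was left out. The lower count was 3 without CD27- CMP replicate 1 or GMP replicate 1, the higher count 1 without CD27- CMP replicate 1 or GMP replicate 2, and 0 were called lower with the 6 arrays alone.

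Genes of ribosome and mitochondrial growth were called mostly as higher. Ribosome biogenesis and Myc genes had 8 of 23 measured members higher and 0 lower, with a median of 0.50. Mycn read 0.77, 1.45 and 1.08 in CD27- CMP, against -1.82, -1.62 and -1.52 in GMP, but its other probe sets differed by 0.11 and 0.06. Myc differed by 0.50 without a call (limma adjusted p = 0.127). Rrp9 and Polr1c, a processing factor and a polymerase subunit, differed by 1.68 and 1.18. The count was 5 without GMP replicate 1 or GMP replicate 2 and 3 with the 6 arrays alone. Respiratory chain and mitochondrial import genes had 5 of 24 higher and 1 lower (2 without GMP replicate 3), with a median of 0.33. Their share called was not far above the 20.5% over all genes. The import gene Timm10 differed by 1.28.

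Bcl2 family genes, which decide on cell death, had 1 of 14 measured members higher and 2 lower, with a median of 0.02. The share called was near the 20.5% over all genes. The death-promoting Bcl2l11 (BIM) was higher by 1.54, and the protective Bcl2 read -1.95, -1.69 and -1.21 in CD27- CMP, against 1.73, 1.21 and 1.50 in GMP. Bcl2l1, the protective Bcl-xL of erythroid cells, differed by -0.13 and Mcl1 by 0.09, without a call for either. The higher count was 3 without CD27- CMP replicate 3 and the lower count 4 without GMP replicate 3.

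Interferon response genes had 4 of 19 measured members higher and 2 lower (all genes: 9.1% and 11.4%), with a median of -0.05. The share called lower was near that over all genes. Irf7 and Usp18 were higher by 2.12 and 2.10, and Gbp3 was lower at -3.94. The higher count was 2 without CD27- CMP replicate 2 or 3 or GMP replicate 1 or 2.

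Immediate early and stress genes, which respond within minutes to handling and growth signals, varied among the GMP arrays. Of 22 measured, 4 were higher and 5 were lower (all genes: 9.1% and 11.4%), with a median of -0.11. Their mean was -0.14, -0.31 and -0.40 in CD27- CMP, against 0.94, 0.67 and 0.26 in GMP. Fos read -1.34, -1.35 and -1.41 in CD27- CMP, against 5.35, 3.28 and 2.05 in GMP, and the heat shock gene Hspa1a read -0.33, -0.50 and -0.50 in CD27- CMP, against 5.27, 3.02 and 0.73 in GMP. Fos was called (-4.93, limma adjusted p = 0.0078) and Hspa1a was not (-3.45, limma adjusted p = 0.088). Egr1 went the other way and read 2.69, 3.04 and 2.37 in CD27- CMP, against -1.02, -0.99 and -1.03 in GMP (difference 3.71). Without GMP replicate 3, 8 members were called lower, and the part of handling in these values was not tested.

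The last question was where CD27- CMP departed from GMP otherwise than MEP does, which the difference between CD27- CMP and MEP tests. It called 6 of 18193 genes (0.033%), 3 higher and 3 lower in CD27- CMP. Efr3a, a membrane protein that anchors a lipid kinase, was the 1 gene below both populations. It read -0.76, -0.91 and -0.77 in CD27- CMP, against 0.23, -0.10 and -0.07 in GMP and 0.42, 0.36 and 0.17 in MEP, with a difference of -1.13 from MEP (SE 0.11, limma adjusted p = 0.01) and of -0.83 from GMP. The number of genes beyond both populations in 1 direction was 10 without CD27- CMP replicate 1, 5 without replicate 2 and 29 without replicate 3, so the count depends on single arrays.

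The other 5 genes were looked at after their values were seen. Fli1, Lcp2 and Myo1g lay between GMP and MEP. Myo1g differed by -4.20 from GMP and by 1.71 from MEP (limma adjusted p = 0.016). Lcp2, an adaptor of immune receptor signalling, differed by -2.32 from GMP and by 1.23 from MEP (limma adjusted p = 0.011). Fli1 differed by -2.97 from GMP and by 1.10 from MEP (limma adjusted p = 0.018). Scd1, a fatty acid desaturase, differed from MEP by -2.84 (limma adjusted p = 0.0039) and from GMP by 0.47, which was not called. Rom1, a tetraspanin known from the retina, differed from MEP by -0.75 (limma adjusted p = 6.8e-04) and from GMP by 0.11, also not called. The MEP comparison shares the CD27- CMP arrays with the GMP comparison.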

How the data were processed

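RNA was hybridised to 12 single-colour Affymetrix arrays, 3 per sorted population. Per the submitters' processing notes the authors used GCRMA, and they deposited 1 log2 value per array for each of 45037 probe sets. Neither a GCRMA version nor a log base is given in the sources used here, and log2 was assumed because GCRMA gives log2. In the deposited table the median of every probe set over the 12 arrays lies within 5e-07 of 0, so absolute signals are lost, and probe sets that are flat over the arrays may be absent or evenly present. GCRMA draws weak signals toward a background, which makes the size of a difference uncertain where 1 population is near it. Raw scans were not analysed here.

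One limma fit (3.58.1, R 4.3.3) used 1 mean per population and default empirical Bayes moderation (prior degrees of freedom 0.992, residual 8). It gave CD27- CMP minus GMP, CD27- CMP minus MEP and CD27- CMP minus CD27+ CMP. Tests were two-sided, without a filter, with Benjamini-Hochberg adjustment over all probe sets per contrast and a threshold of 0.05. Precision is limited by the number of arrays, with a median SE of 0.0904 and a 90th percentile of 0.326. The same code was tested on simulated data. The annotation gave 34945 probe sets exactly 1 gene symbol, 932 several and 9160 none; 34741 of the first were found in RefSeq and 0 symbols were updated. Of 18193 genes, each read at the probe set with the largest SD over the 12 arrays, 11 had probe sets called in opposite directions.

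The members of the comparison and the 40 gene lists were chosen with earlier results of these data known. Genes were named by rule: the 15 with the largest difference in each direction among called genes without overlap and with a proper name, the genes of the sorting antibodies, the markers Lmna, Cldn13, Fcgr3, Hp and Chdh, up to 6 called members per list and direction plus uncalled members given with their values, and genes beyond both GMP and MEP. Others are said to have been picked later. Lists are described by counts and medians, with no set test. A planned count took genes that also differ between the CMP fractions in the same direction. Of the 1656 genes higher than in GMP, 1300 were also called higher than in CD27+ CMP. Of the 2066 lower genes, 1571 were also called lower than in CD27+ CMP. Over all 18193 genes, 1693 were called higher and 2063 lower than in CD27+ CMP. Both contrasts use the same CD27- CMP arrays, so the overlap is a description and no test. Replicates with the same number did not deviate together (correlations of deviations -0.33, 0.07 and -0.12 for replicates 1, 2 and 3), so the numbers were not treated as pairs.

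Alternatives were the 6 arrays alone, quantile normalization, centring arrays on their median, array weights, robust moderation, a minimum range of 0.5, the replicate number as a block, each array left out, a minimum difference of 1, the probe set most variable in CD27+ CMP and MEP, and the mean of a gene's probe sets.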

Additional observations from a re-analysis of the deposited data

How the results depend on the processing

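The called probe sets numbered 6393 and ran from 5079 to 7892 when single arrays were left out, and the called genes numbered 3722 and ran from 3034 to 4332. Asking also for a difference of at least 1 left 4234 probe sets and 2665 genes. Array weights gave 30200 probe sets (21731 higher, 8469 lower) and 13067 genes, but the weights ran from 1.646e-07 to 52.2 and their estimation stopped before converging. The replicate block gave 6512 probe sets and 3825 genes.

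The 1 gene beyond both GMP and MEP became 21 with array weights, 2 with a minimum range of 0.5, 3 with the replicate block, 2 with the mean of a gene's probe sets and 0 with a minimum difference of 1, and ran from 1 to 29 when arrays were left out. The 6 arrays alone cannot give this count.

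Signs turned with array weights for Bhmt (0.287), Ccnb2 (-0.198), Cd3e (0.0790), Cd6 (0.0325), Cdc42ep3 (-0.306), Gbp2 (0.386), Il5ra (0.0792), Ltb (-0.632), Ly96 (-0.293) and Oas1a (0.335), and with the probe set most variable in CD27+ CMP and MEP for Ccnd3 (-0.246) and S100a10 (-0.0905). The cause was not tested. Of 343 called genes named or listed, 49 lost their call with the 6 arrays alone, 9 with quantile normalization, 7 with the replicate block and 0 with robust moderation. Of 80 list counts, 51 moved by over 1.5 times in at least 1 alternative.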
